A study of Mus musculus with 4 samples.

Results

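Homeostatic identity genes of microglia, the resident macrophages of the brain, were followed through CD45+ cells from 2 regions of the injured brain, thalamus and hippocampus (HPC). The set was 10 of the 32285 genes in the count tables, picked by symbol, and all 10 were found in all 8 tables: Tmem119, Siglech, Selplg, Olfml3, Sparc, Fcrls, Adgrg1, Slc2a5, Crybb1 and Ltc4s. Live CD45+ leukocytes had been sorted from the injured hemisphere of C57B6/J mice with cortical brain injury and sequenced one cell at a time in droplets (scRNA-seq), with 4 sets of cells per region told apart by Cell Multiplexing Oligos. All mice carried the injury, and none of the tables used held uninjured tissue. By the methods, cells of separate mice were combined within a region, with no word on which oligo tagged which mouse. A set was taken as 1 mouse, which the labels do not state, and p-values measure the spread between these sets. Region and library cannot be told apart, since one library was made per region.

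Microglia settle in the brain before birth and keep a gene programme that depends on signals from the tissue, TGF-beta above all, and on transcription factors such as PU.1 and Sall1. Genes of that programme separate microglia from blood-derived macrophages, and many of them are known to fall when microglia take on the disease-associated microglia (DAM) state, in which genes of phagocytosis and lipid handling such as Apoe, Lpl, Cst7 and Spp1 rise. Several of the genes followed here encode surface proteins. Tmem119 is a transmembrane protein used as a microglial marker, Siglech a sialic acid-binding lectin, Selplg the ligand of selectins that lets leukocytes roll on vessel walls, Fcrls an Fc receptor-like scavenger receptor and Adgrg1 (GPR56) an adhesion G protein-coupled receptor. Sparc, a matricellular glycoprotein, and Olfml3, an olfactomedin-like protein, are secreted. Slc2a5 is the fructose transporter GLUT5, Ltc4s is leukotriene C4 synthase, an enzyme of lipid mediator synthesis, and Crybb1 encodes a crystallin first known from the lens.

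The 10 genes lie on 6 mouse chromosomes in GRCm38 (GENCODE M21), and all are protein-coding. Tmem119 (chr5:113793729-113800516) and Selplg (chr5:113818536-113832644), both on the minus strand, are neighbours with 18019 bases and 0 protein-coding genes between them. Ltc4s (chr11:50236461-50238616, minus strand) is overlapped by the antisense gene Gm26542, and whether counting used the strand was not stated, so its level is uncertain. RefSeq promoter sequences (GRCm38.p6) were at hand for 8 of the 10 genes. The 160 bases that end with the start site's first bases are shown for Fcrls (chr3:87263523-87263682, minus strand), which rose in cells of the DAM gate introduced further on, for Sparc (chr11:55420079-55420238, minus strand), which did not pass the test there, and for Siglech (chr7:55768026-55768185, plus strand) and Slc2a5 (chr4:150119186-150119345, plus strand), which fell. Capitals mark GAGGAA on either strand, the core letters that the transcription factor PU.1 is known to bind.
Fcrls: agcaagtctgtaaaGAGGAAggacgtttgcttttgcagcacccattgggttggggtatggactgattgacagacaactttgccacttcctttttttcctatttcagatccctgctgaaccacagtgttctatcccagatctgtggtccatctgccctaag
Sparc: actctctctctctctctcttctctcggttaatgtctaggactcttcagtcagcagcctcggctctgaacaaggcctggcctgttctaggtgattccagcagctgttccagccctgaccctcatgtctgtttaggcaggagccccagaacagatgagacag
Siglech: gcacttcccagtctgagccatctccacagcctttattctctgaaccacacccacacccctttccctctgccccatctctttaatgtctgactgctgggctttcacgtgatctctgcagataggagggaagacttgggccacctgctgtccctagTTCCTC
Slc2a5: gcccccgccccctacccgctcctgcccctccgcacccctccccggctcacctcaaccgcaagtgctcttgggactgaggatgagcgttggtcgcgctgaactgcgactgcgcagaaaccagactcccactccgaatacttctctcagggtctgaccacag
Over the whole promoter entries, which run from 250 bases before to 50 after a start, GAGGAA was found for 3 of the 8 genes (Fcrls, Siglech and Ltc4s), and in 28.3% of 32851 mouse promoters of that length. Neither the presence nor the absence of these letters divided genes that fell from genes that did not: Fcrls and Siglech both held them, and Sparc and Slc2a5 did not. A match is a description of letters and not a binding site.

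After filtering, 24939 of 29190 cells were kept, with 2072 to 5389 cells and a median of 4261.5 to 4657 unique molecular identifiers (UMIs, molecules counted once) per cell in a set. Cell classes were drawn from marker genes that included none of the 10 genes, and gave 19193 microglia, 2715 T cells, 862 neutrophils, 188 monocytes, 121 natural killer (NK) cells, 101 border macrophages, 87 conventional and 14 plasmacytoid dendritic cells, 77 B cells and 1581 cells of no class. All 8 microglial markers were far above the other cells in the microglial class, for example P2ry12 at 16.3 against 2.72 UMIs per 10000. The class was gated on the sum of these same markers, so their height there was set in advance and does not test the gate. A pair of sets stood apart. Microglia were 65.2% of HPC set 1 and 88.1% to 94.3% of the other HPC sets, and DAM-gated cells were 32.5% of the microglia of thalamus set 1 and 14.3% to 17.9% of those of the other thalamus sets, so results that rest on these sets are also given without them. Within a region 0 cell barcodes were shared between sets, and 65 barcodes occurred in both regions.

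Which immune cells expressed the genes was asked first. Pooled over sets, microglia held 17.6 UMIs of Sparc per 10000 UMIs, 11.2 of Fcrls, 10.8 of Siglech, 9.71 of Selplg, 8.52 of Olfml3, 6.26 of Tmem119 and 4.53 of Ltc4s. Crybb1 (1.73), Adgrg1 (1.51) and Slc2a5 (1.32) were the low members, on the same scale. In this 3′ counting a molecule gives 1 UMI whatever its length, so these levels were not divided by length. In T cells, taken here as the measure of free RNA in the droplets, the 9 genes other than Selplg stood between 0.04 and 0.42 UMIs per 10000. Outside microglia and border macrophages most of the genes were near that background.

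Selplg was shared by many leukocytes, at 5.92 UMIs per 10000 in neutrophils (95% Poisson interval 5.57 to 6.29), 4.53 in NK cells (3.99 to 5.14) and 4.20 in T cells (4.08 to 4.32), intervals that cover counting error only. Siglech, also a known marker of plasmacytoid dendritic cells, was at 16.1 UMIs per 10000 in the 14 cells of that class (13.7 to 18.6), above its level in microglia, and at 0.10 in monocytes. Ltc4s reached 0.78 in neutrophils (0.66 to 0.93). Fcrls was the member with the smallest gap between microglia and border macrophages, the CD206-positive macrophages of the meninges and vessels, where its pooled level was 8.20 UMIs per 10000 (7.49 to 8.96).

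**Figure D1:**
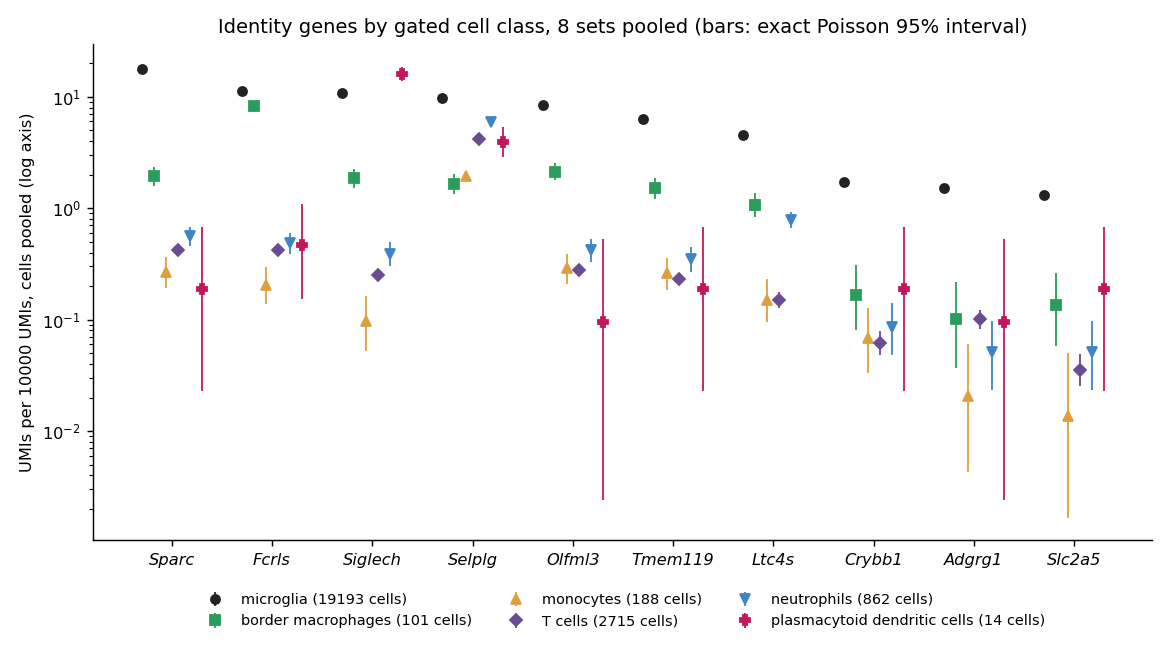
Pooled level of each of the 10 genes (UMIs per 10000 UMIs, log axis) in 6 marker-gated cell classes, with exact 95% Poisson intervals; classes with 0 UMIs are not drawn. Microglia stand highest for 9 genes, border macrophages come close for Fcrls, and plasmacytoid dendritic cells lie above microglia for Siglech.

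Against border macrophages of the same sets (5 sets with at least 10 cells of both classes), all 10 genes were higher in microglia in edgeR's quasi-likelihood test (p-values adjusted over all genes after Benjamini and Hochberg), where 8.01% of 12167 genes tested were called higher. Of all genes called there 56.7% were higher, and 40.6% (512 higher, 748 lower) in DESeq2. The median log2 fold change of the 10 genes was 2.39, beside 0.20 for all genes. Fcrls changed least. It was 8.64, 8.33 and 9.28 UMIs per 10000 in border macrophages of thalamus sets 1, 2 and 4 and 7.80 and 7.60 in those of HPC sets 1 and 2, and its log2 fold change was 0.47 (SE 0.16, edgeR adjusted p = 0.0268). That call was lost with RLE factors (adjusted p = 0.109) and with DESeq2 (adjusted p = 0.114), and without thalamus set 1, 2 or 4. Sparc was 0.37 to 2.64 UMIs per 10000 in border macrophages of those sets, and its log2 fold change was 3.30 (SE 0.20, edgeR adjusted p = 1.47e-60).

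Against monocytes, in the same 5 sets and with the same microglial sums, all 10 genes were again higher in microglia, where 30.8% of genes tested were called higher. On the log2 scale the difference was smallest for Selplg (2.04, SE 0.18, edgeR adjusted p = 1.81e-17). The 9 others stood between 0.0138 and 0.289 UMIs per 10000 in monocytes, near or under their level in T cells (0.0963 beside 0.254 for Siglech), so no fold against this background is given for them. Of 40 other homeostatic microglial genes, 38 were higher than in monocytes and 2 lower, led in fitted size by Sall3, Lag3 and Serpine2. In the comparison with border macrophages 32 were higher and 2 lower, led by Upk1b and by the transcription factors Sall3 (3.58, SE 0.35) and Sall1 (3.33, SE 0.30), which are known to mark microglia. The 40 include P2ry12, a marker of the microglial gate, whose level in microglia the gate itself raised, so these counts are not independent of the gate.

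Within microglia the genes differed in how many cells held them. With every cell thinned to 2000 UMIs, 91.0% ± 2.35 (SD, n = 4 sets) of thalamic and 91.8% ± 3.86 of HPC microglia held a UMI of Sparc, and 19.9% ± 4.34 and 26.3% ± 8.64 held one of Slc2a5. The share of T cells with a UMI at the same depth was 8.56% and 5.75% for Sparc and 0.44% and 1.37% for Slc2a5. For Selplg it was 55.2% and 53.5%, beside 73.2% and 84.1% of microglia. Without thinning, at median depths of 4378.5 to 4918 UMIs, 95.1% and 96.9% of thalamic and HPC microglia held a UMI of Sparc and 34.9% and 46.8% one of Slc2a5. Thinning left out 56 to 191 microglia per set.

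Whether microglia of the thalamus and the HPC differed was asked over all microglia of a set. Adgrg1 and Tmem119 were lower in the thalamus, Fcrls and Sparc had higher means there, and Olfml3 was nearly level. Adgrg1 was 0.94, 1.29, 1.36 and 1.27 UMIs per 10000 in thalamus sets 1 to 4 and 1.55, 1.88, 1.84 and 1.83 in HPC sets 1 to 4. Tmem119 was 4.36, 5.86, 6.03 and 5.24 in the thalamus against 6.05, 7.74, 7.56 and 7.13 in the HPC. For both genes every thalamus set lay below every HPC set, for Tmem119 by a narrow margin, and these 2 of the 10 genes were the only ones whose regions did not overlap, as did 13.2% of all genes tested in that direction. The log2 fold change, thalamus over HPC, was -0.48 for Adgrg1 (SE 0.09, edgeR adjusted p = 0.0101) and -0.34 for Tmem119 (SE 0.09, edgeR adjusted p = 0.0406), so that 2 of 10 were called lower and 0 higher, where 4.92% of 12997 genes were called lower. The median of the 10 log2 fold changes was -0.34, beside -0.02 for all genes. The call of Adgrg1 held in each other setting run, and that of Tmem119 was lost without thalamus set 1, 2 or 4 or HPC set 2, 3 or 4, with the stricter class gate and without Malat1-poor cells (adjusted p from 0.0517 to 0.124).

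The other genes spread more widely among sets. Siglech was 6.40, 8.89, 10.6 and 9.58 UMIs per 10000 in the thalamus against 8.59, 14.1, 14.7 and 14.3 in the HPC, where set 1 overlapped the thalamus sets (log2 fold change -0.47, SE 0.17, edgeR adjusted p = 0.0945). Fcrls was 13.6, 11.2, 12.8 and 12.3 in the thalamus against 8.33, 10.9, 12.1 and 10.3 in the HPC (log2 fold change 0.34, SE 0.10, edgeR adjusted p = 0.0599). Sparc was 19.8, 16.8, 21.9 and 18.9 in the thalamus against 13.1, 17.8, 19.1 and 17.3 in the HPC (log2 fold change 0.28, SE 0.11, edgeR adjusted p = 0.131). HPC set 1 was the lowest HPC set for all 10 genes. Olfml3 was 8.48 ± 0.35 (SD, n = 4) in the thalamus and 8.70 ± 0.87 in the HPC (edgeR adjusted p = 0.762).

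How many genes passed depended on HPC set 1 and on the pairing of the sets. For the fit without HPC set 1 the share of all genes called is not reported here. In that fit edgeR called 7 of 10 lower in the thalamus (all but Fcrls, Sparc and Olfml3). With the set number as a block it called 7 lower and 2 higher, where 12.3% of genes were called lower and 17.1% higher: the same 7 fell, and Fcrls (0.34, SE 0.09, adjusted p = 0.0164) and Sparc (0.28, SE 0.09, adjusted p = 0.0319) rose. In edgeR with library totals alone, 906 genes were higher and 1127 lower instead of 1189 and 639, and the median of all genes moved from -0.02 to -0.08. Of the 40 other homeostatic genes, 7 were lower in the thalamus and 2 higher, with a median of -0.14. Klf2, a transcription factor known from vessel walls, was 2.03 higher on the log2 scale, Serpine2, a protease inhibitor, was 0.55 higher, and the transporter Abcc3 was lower (-0.54).

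**Figure D2:**
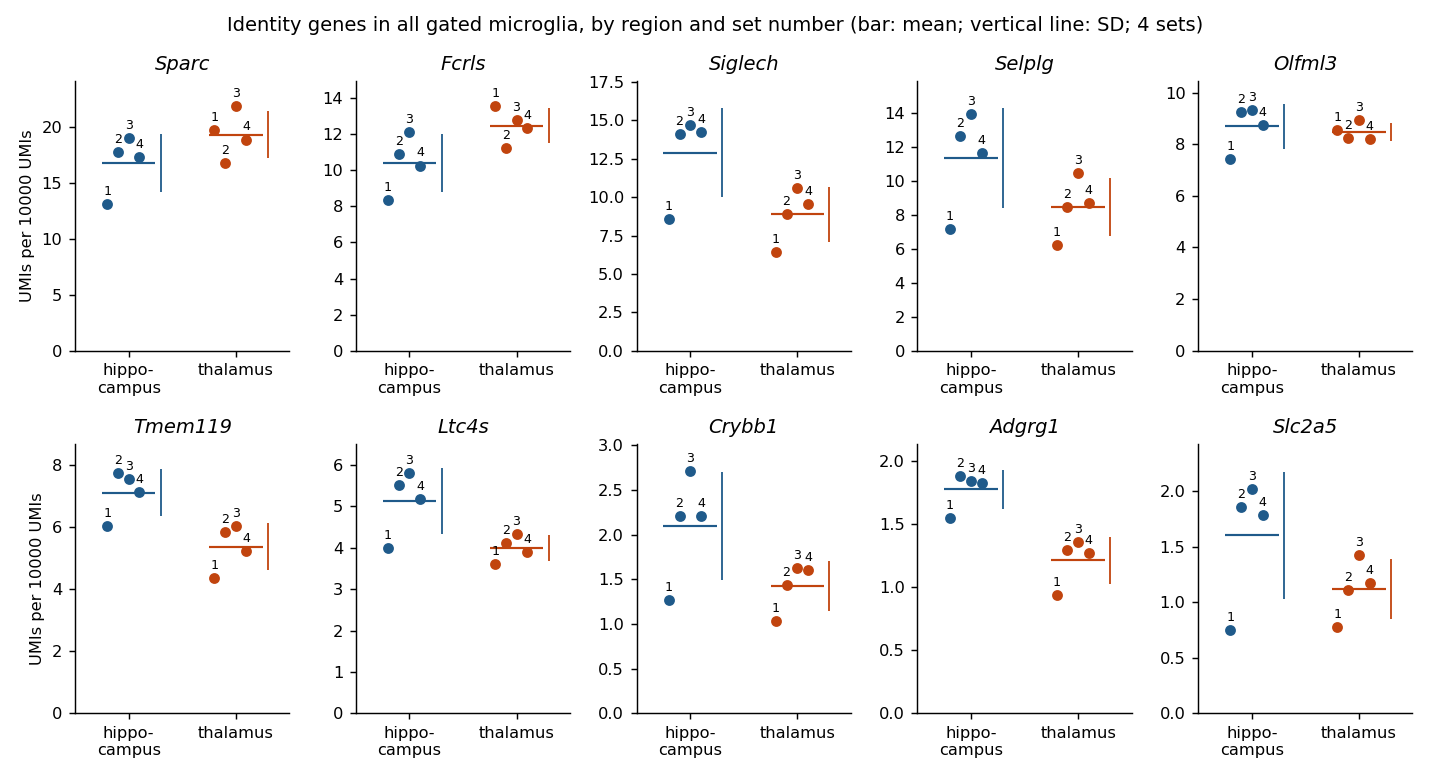
Level of each gene (UMIs per 10000 UMIs) in all microglia of each of the 4 HPC (blue) and 4 thalamus (orange) sets, with the set number at each point, a bar for the mean and a vertical line for the SD. The regions are apart for Adgrg1 and, narrowly, for Tmem119, and HPC set 1 lies below the other HPC sets for all 10 genes.

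Microglia that passed no state gate were compared next, since DAM-gated cells were 14.3% to 32.5% of thalamic and 1.38% to 5.38% of HPC microglia. In all, 15204 cells passed no state gate, 2074 the DAM gate alone, 325 an Il1b gate, 322 an interferon gate, 236 an MHC class II gate and 33 a cycling gate, and 999 passed several. In the ungated cells the regions overlapped for all 10 genes. Of all 12412 genes tested, 534 lay apart as lower in the thalamus and 544 as higher, so most genes overlapped. Tmem119 was 6.29, 7.27, 7.44 and 6.84 UMIs per 10000 in the thalamus against 6.38, 7.97, 7.70 and 7.37 in the HPC. Adgrg1 was 1.43, 1.57, 1.67 and 1.68 in the thalamus against 1.63, 1.94, 1.89 and 1.88 in the HPC. EdgeR called 0 of 10 genes, with adjusted p from 0.172 (Adgrg1, log2 fold change -0.19, SE 0.06) to 0.884 (Fcrls, -0.05), and DESeq2 also called 0, where 0.854% of 12412 genes were called in either direction. At an unadjusted p under 0.05 edgeR had 1739 of all genes. With the set number as a block Adgrg1 alone fell (-0.20, adjusted p = 0.0215; 2.02% of genes called lower), and without HPC set 1 Adgrg1 (-0.23, adjusted p = 0.0308) and Siglech (-0.34, adjusted p = 0.0317) did. Leaving out gated cells did not level the DAM markers. They summed to 21.3 to 27.2 UMIs per 10000 in the ungated cells of the thalamus and 15.1 to 21.0 in those of the HPC. Of the 11 markers, 3 were called higher in the thalamus and 0 lower (edgeR). Dissociation-associated genes summed to 48.9 to 64.8 UMIs per 10000 in these cells in the thalamus and 36.0 to 46.7 in the HPC, and the part of both in the levels was not tested.

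In DAM-gated microglia the homeostatic genes moved apart. The gate took cells with at least 50 UMIs per 10000 over 11 DAM markers, none of them one of the 10 genes. Crybb1 and Slc2a5 fell most. Siglech, Tmem119, Selplg and Adgrg1 fell to at most 0.457 of the level of the ungated cells in each of the 8 sets, Ltc4s and Olfml3 fell less, Sparc did not pass the test and Fcrls rose. Crybb1 went from 1.75, 1.84, 2.10 and 2.22 UMIs per 10000 in ungated cells of thalamus sets 1 to 4 to 0.41, 0.41, 0.35 and 0.50 in DAM-gated cells. In the HPC it went from 1.34, 2.30, 2.77 and 2.32 to 0.53, 0.39, 0.98 and 0.77. The gated values lay below all ungated values in both regions, with no count of such genes over all genes. Its log2 fold change was -1.84 (SE 0.09, edgeR with the set as a block, adjusted p = 1.21e-22), and that of Slc2a5 was -1.80 (SE 0.09, adjusted p = 1.03e-21).

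Tmem119 fell from between 6.29 and 7.97 UMIs per 10000 in ungated cells to between 2.17 and 2.92 in DAM-gated cells of the 8 sets. Its log2 fold change was -1.29 (SE 0.07, edgeR adjusted p = 6.34e-21), close to those of Siglech (-1.38), Selplg (-1.20) and Adgrg1 (-1.19). Each of these 4 genes had gated and ungated levels that did not overlap. How many of all genes were apart between these groups was not counted, so the separation is a description only. Ltc4s (-0.81, SE 0.08, edgeR adjusted p = 1.37e-12) and Olfml3 (-0.30, SE 0.08, edgeR adjusted p = 0.00126) fell less. In all, 8 of 10 genes were called lower and 1 higher, where 19.7% of 12640 genes were called lower and 22.7% higher. The median of the 10 log2 fold changes was -1.19, beside -0.01 for all genes. Monocyte markers summed to 0.651 to 4.43 UMIs per 10000 in DAM-gated and 0.166 to 0.670 in ungated cells and were higher in the gated cells of all 8 sets, with 0 to 5 of the 8 markers at 0 there. Dissociation-associated genes summed to 21.8 to 32.4 against 36.0 to 64.8, with 8 of 12 called lower and 1 higher. The part of both in these changes was not tested.

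Fcrls went against the others. In the thalamus it was 8.80, 10.4, 10.9 and 10.6 UMIs per 10000 in ungated cells and 18.0, 13.6, 17.4 and 14.2 in DAM-gated cells, ratios of 2.04, 1.31, 1.59 and 1.34 in sets 1 to 4. In the HPC it was 8.32, 11.2, 12.3 and 10.7 in ungated cells and 9.67, 8.59, 9.59 and 9.47 in DAM-gated cells, ratios of 1.16, 0.77, 0.78 and 0.89. The gene was thus higher in the gated cells of all 4 thalamus sets and of HPC set 1, and lower in those of the other HPC sets. Over all 8 sets its log2 fold change was 0.48 (SE 0.10, edgeR adjusted p = 0.000107), a call that DESeq2 did not make (0.44, adjusted p = 0.0528). Without thalamus set 1 it was 0.31 (edgeR adjusted p = 0.00205), and without HPC set 1 it was 0.45 (adjusted p = 0.000148).

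Sparc followed a similar division with no overall rise. DAM-gated over ungated ratios were 0.95, 0.88, 0.96 and 0.90 in the thalamus against 0.77, 0.55, 0.56 and 0.53 in the HPC, and the log2 fold change over all sets was -0.20 (SE 0.09, edgeR adjusted p = 0.0705). Sparc passed as lower without thalamus set 1 (-0.29, adjusted p = 0.00294), without HPC set 1 or thalamus set 2, 3 or 4, with library totals alone (-0.39), with no filter on low counts, without Malat1-poor cells (-0.31) and with lower thresholds, 9 of 19 other settings. Endothelial cells and astrocytes, which the CD45+ sort should leave out, are known to express Sparc. Their 5 markers each summed to 0.17 to 0.51 (endothelial) and 1.43 to 2.39 (astrocyte) UMIs per 10000 in DAM-gated cells and to 0.11 to 0.22 and 2.49 to 3.72 in ungated cells. Their part in the level of Sparc was not tested.

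**Figure D3:**
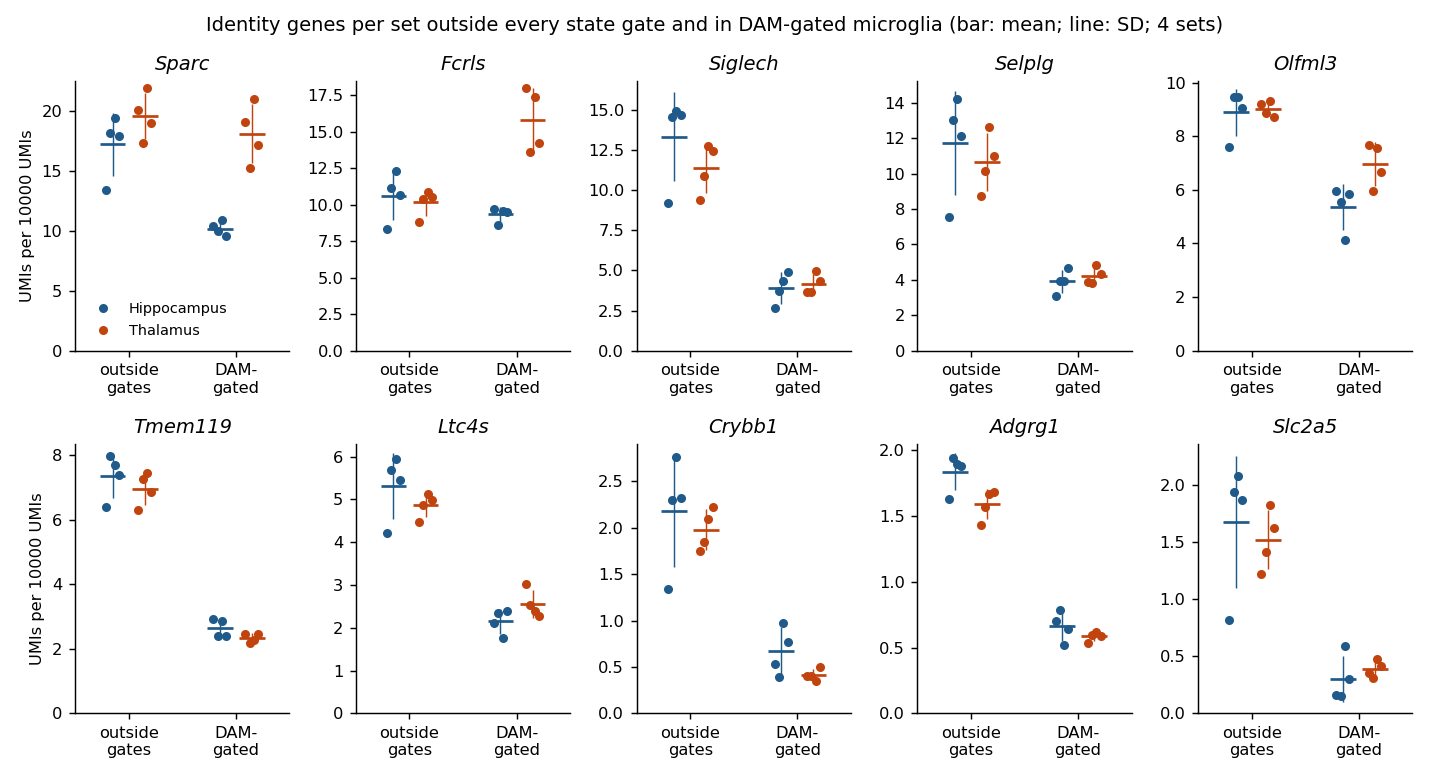
Level of each gene (UMIs per 10000 UMIs) in microglia outside every state gate and in DAM-gated microglia, 1 point per set of the HPC (blue) and the thalamus (orange), with a bar for the mean and a line for the SD of 4 sets. DAM-gated points lie low in both regions for most genes, while the thalamic points of Fcrls are higher than outside the gates and those of Sparc stay near 18.1.

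Of the 40 other homeostatic genes, 30 fell and 4 rose in DAM-gated cells, with a median log2 fold change of -0.51. The uroplakin gene Upk1b (-1.73) and the purine receptor gene P2ry12 (-1.24, a marker of the microglial gate) were among those that fell most. The count of all genes called higher and lower, 2868 and 2494, was 1771 and 5075 in edgeR with library totals alone, where the median of all genes was -0.25. The directions of the 9 called genes were the same under that scaling, at 0.29 for Fcrls and -0.50 for Olfml3. Cells held fewer of the genes as well. With cells thinned to 2000 UMIs, ungated microglia held on average 5.72 to 6.93 of the 10 genes per set and DAM-gated microglia 3.86 to 4.45, while T cells held 0.86 to 1.06.

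Levels also moved with the size of the DAM marker sum. In thalamic microglia with a sum of 200 or more UMIs per 10000, Fcrls was at 250% ± 31.2 (SD, n = 4 sets) of its level in cells with a sum under 10, Sparc at 96.0% ± 15.6 and Olfml3 at 77.6% ± 2.36. At the same sums Selplg was at 22.9% ± 3.2, Tmem119 at 18.5% ± 5.2, Siglech at 16.9% ± 3.6, Slc2a5 at 8.57% ± 4.71 and Crybb1 at 8.05% ± 3.07. Between 50 and 100 UMIs per 10000, where all 8 sets had at least 20 cells, Fcrls was at 140% ± 12.8 in the thalamus and 94.9% ± 16.5 in the HPC. Sparc was at 94.8% ± 6.65 and 76.6% ± 16.9 there. Of the HPC sets, set 1 alone had 20 cells above 100. These bins are steps along the gate's own markers and describe the cells without a test.

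**Figure D4:**
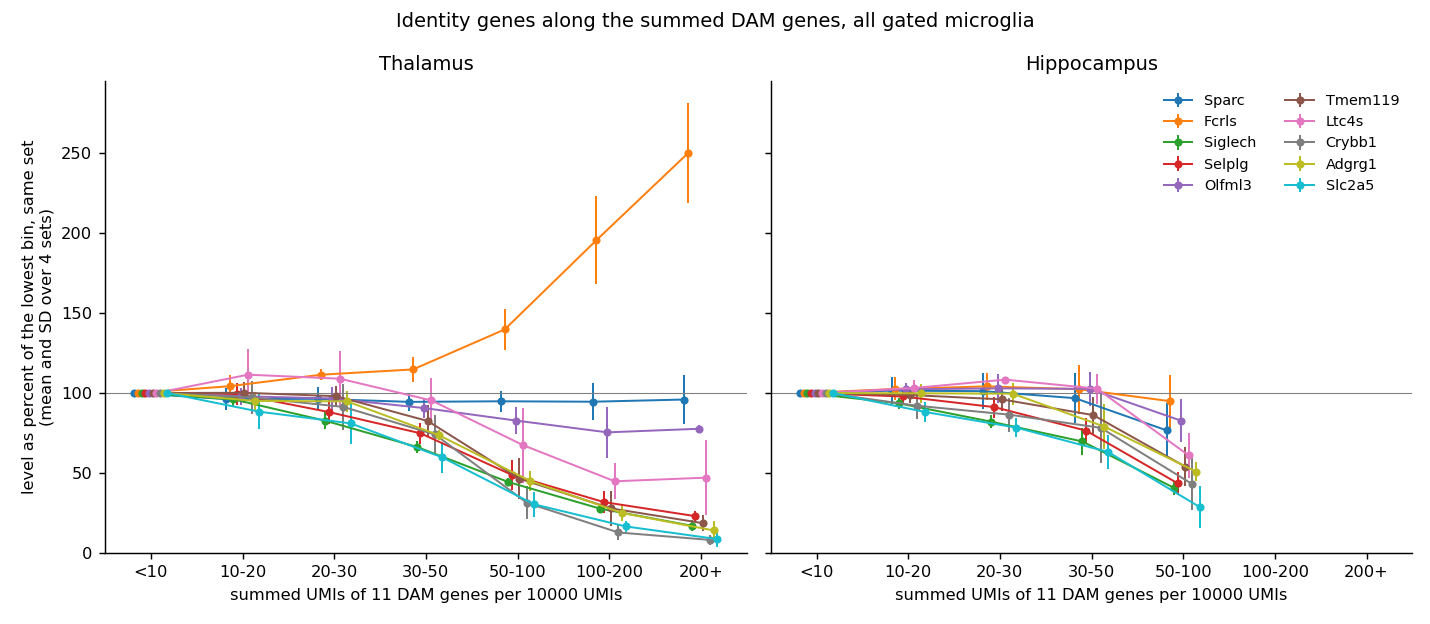
Level of each gene as a percentage of that in microglia of the same set with a DAM marker sum under 10 UMIs per 10000, across bins of that sum (x axis), as the mean and SD of 4 sets; HPC bins above 100 are not drawn. In the thalamus Fcrls climbs to 250%, Sparc stays near 96.0% and Crybb1 drops to 8.05%.

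Whether the regions differed within DAM-gated cells was tested on sums of 254 to 765 cells in the thalamus and 27 to 189 in the HPC. Fcrls and Sparc were higher in the thalamus. Fcrls was 18.0, 13.6, 17.4 and 14.2 UMIs per 10000 there against 9.67, 8.59, 9.59 and 9.47 in the HPC, and Sparc was 19.1, 15.3, 21.0 and 17.2 against 10.4, 10.0, 10.9 and 9.55. The regions did not overlap for either gene, nor for Olfml3 (5.96 to 7.66 against 4.11 to 5.94), 3 of 10 genes where 3.02% of all genes were apart in that direction. The log2 fold change was 0.81 for Fcrls (SE 0.12, edgeR adjusted p = 0.000682) and 0.88 for Sparc (SE 0.12, edgeR adjusted p = 0.000249), 2 of 10 genes where 0.552% of 9064 genes were called higher. Without thalamus set 1 the values were 0.73 (edgeR adjusted p = 0.00199) and 0.85 (adjusted p = 0.000533), and without HPC set 1 they were 0.86 (adjusted p = 0.00400) and 0.92 (adjusted p = 0.00152). The 8 others did not pass, with Olfml3 at 0.39 (SE 0.13, edgeR adjusted p = 0.198), Slc2a5 at 0.83 (SE 0.28, adjusted p = 0.241) and Tmem119 at -0.15 (SE 0.11, adjusted p = 0.713).

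The gated cells of the regions differed in other measures too. Their median DAM marker sum was 159.5, 99.1, 96.8 and 98.2 UMIs per 10000 in thalamus sets 1 to 4 and 77.8, 78.8, 78.9 and 68.1 in HPC sets 1 to 4. Within sums of 50 to 100, a restriction chosen after seeing the data, Fcrls was 0.49 higher in the thalamus (edgeR adjusted p = 0.00393) and Sparc 0.69 higher (adjusted p = 0.000382). Cells poor in the nuclear RNA Malat1, under 40 UMIs per 10000, were 268 of 765, 62 of 254, 86 of 316 and 108 of 436 gated cells in thalamus sets 1 to 4 and 53 of 189, 9 of 48, 2 of 27 and 2 of 39 in HPC sets 1 to 4. Without them the differences were 0.69 and 0.76 (edgeR adjusted p = 0.00044 and 0.00017). In the thalamus, Malat1-poor DAM-gated cells held 21.4 ± 6.28 UMIs of Fcrls per 10000 and 21.2 ± 6.56 of Sparc, and the other DAM-gated cells 14.8 ± 1.37 and 17.6 ± 1.79 (SD, n = 4 sets).

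The change from ungated to DAM-gated cells differed between the regions for 3 of the 10 genes, by the interaction term of the edgeR fit with the set as a block. It was more positive in the thalamus by 0.90 on the log2 scale for Fcrls (SE 0.12, adjusted p = 3.37e-07), by 0.74 for Sparc (SE 0.12, adjusted p = 1.57e-05) and by 0.46 for Siglech (SE 0.12, adjusted p = 0.0364), where 0.451% of genes were called in that direction. For Siglech the call held in 2 of the 14 other settings run, without HPC set 4 and with higher gate thresholds. Without the block 0 of 10 genes passed in edgeR (Fcrls 0.94, adjusted p = 0.0521), and 0 passed within marker sums of 50 to 100 (Fcrls 0.50, adjusted p = 0.0505; Sparc 0.46, adjusted p = 0.0789). In edgeR with library totals alone the higher and lower calls over all genes were 17 and 43 instead of 57 and 37, while Fcrls (0.76) and Sparc kept their calls. Of the 40 other homeostatic genes 3 were called, all more positive in the thalamus: the immune checkpoint gene Lag3 (1.01), Serpine2 (0.97) and the G protein regulator gene Rgs10 (0.63).

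The 3 smaller state gates were compared with the same ungated sums, which the 4 gate comparisons share. In MHC class II-gated cells all 10 genes fell, in the 4 sets with at least 20 such cells (thalamus sets 2 and 4 and HPC sets 2 and 4, 36 to 57 cells), where 4.18% of 12116 genes were called lower. The log2 fold changes ran from -0.52 for Olfml3 (SE 0.11, edgeR adjusted p = 0.000104) to -1.20 for Crybb1 (SE 0.16, edgeR adjusted p = 1.45e-11), with a median of -0.72 beside -0.05 for all genes. Fcrls fell here, at 5.83 and 6.81 UMIs per 10000 in those of thalamus sets 2 and 4 and 4.97 and 3.21 in those of HPC sets 2 and 4, all below the 8.32 to 12.3 of ungated cells (log2 fold change -0.99, SE 0.12, edgeR adjusted p = 3.29e-15). Siglech was at 3.79 and 8.29 in thalamus sets 2 and 4 and at 7.71 and 14.0 in HPC sets 2 and 4, the last value lying within the ungated range. In HPC set 4 Selplg (8.76), Adgrg1 (1.76), Slc2a5 (1.35) and Crybb1 (1.42) also lay within their ungated ranges.

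Markers of other macrophages moved with the MHC class II gate. Border macrophage markers summed to 1.86 to 6.39 UMIs per 10000 in the tested MHC class II-gated sums and to 1.53 to 2.05 in ungated cells, and monocyte markers to 0.64 to 3.17 and 0.17 to 0.67, and their part in the fall was not tested. Of the 40 other homeostatic genes, 28 fell and 1 rose, led by Ecscr (-1.41), a membrane protein named for its role in endothelial cells, Upk1b (-1.39) and the purine receptor gene P2ry13 (-0.90). The higher and lower calls over all genes, 648 and 506, became 535 and 765 in edgeR with library totals alone, 741 and 372 with RLE factors and 558 and 181 in DESeq2.

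In interferon-gated cells (25 to 70 cells in all 8 sets), 3 of 10 genes fell, where 3.77% of genes were called lower. Ltc4s ran from 2.38 to 4.15 UMIs per 10000 over the thalamus sets and from 2.54 to 6.06 over the HPC sets (log2 fold change -0.50, SE 0.08, edgeR adjusted p = 1.94e-08). Slc2a5 (-0.47, SE 0.12, edgeR adjusted p = 0.00218) and Fcrls (-0.27, SE 0.07, edgeR adjusted p = 0.000932) fell with it. Tmem119 was at -0.12 (SE 0.07, edgeR adjusted p = 0.391) and Olfml3 at -0.02 (SE 0.07, edgeR adjusted p = 0.940). Without the set as a block Ltc4s alone passed (edgeR adjusted p = 0.0123). The higher and lower calls over all genes were 523 and 467, and 685 and 260 with RLE factors, 581 and 137 in DESeq2. Of the 40 other homeostatic genes 23 fell and 3 rose, led by Upk1b (-0.80), Ecscr (-0.76) and Entpd1 (-0.49), which breaks down extracellular ATP.

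In Il1b-gated cells (24 to 60 cells in 7 sets), 7 of 10 genes were called lower, where 2.44% of genes were. Selplg had the lowest adjusted p (-0.28, SE 0.06, edgeR adjusted p = 0.000632), and Fcrls (-0.08), Olfml3 (-0.12) and Crybb1 (-0.30) did not pass. Of 12 dissociation-associated genes, 9 were higher and 0 lower in the gated cells (median log2 fold change 0.43, edgeR), and their part in the levels of the 10 genes was not tested. Without HPC set 1, 3 or 4, 4, 2 and 3 of 10 passed, with the share of all genes called not reported here. The calls were lost with DESeq2 and without the block, both with 0 of 10, and Selplg alone passed with RLE factors, where the calls over all genes went from 267 higher and 302 lower to 354 and 130 (306 and 181 with library totals alone, 252 and 68 in DESeq2). Of the 40 other homeostatic genes 12 fell and 1 rose, among them Slco2b1 (-0.49) and Abcc3 (-0.44).

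**Figure D5:**
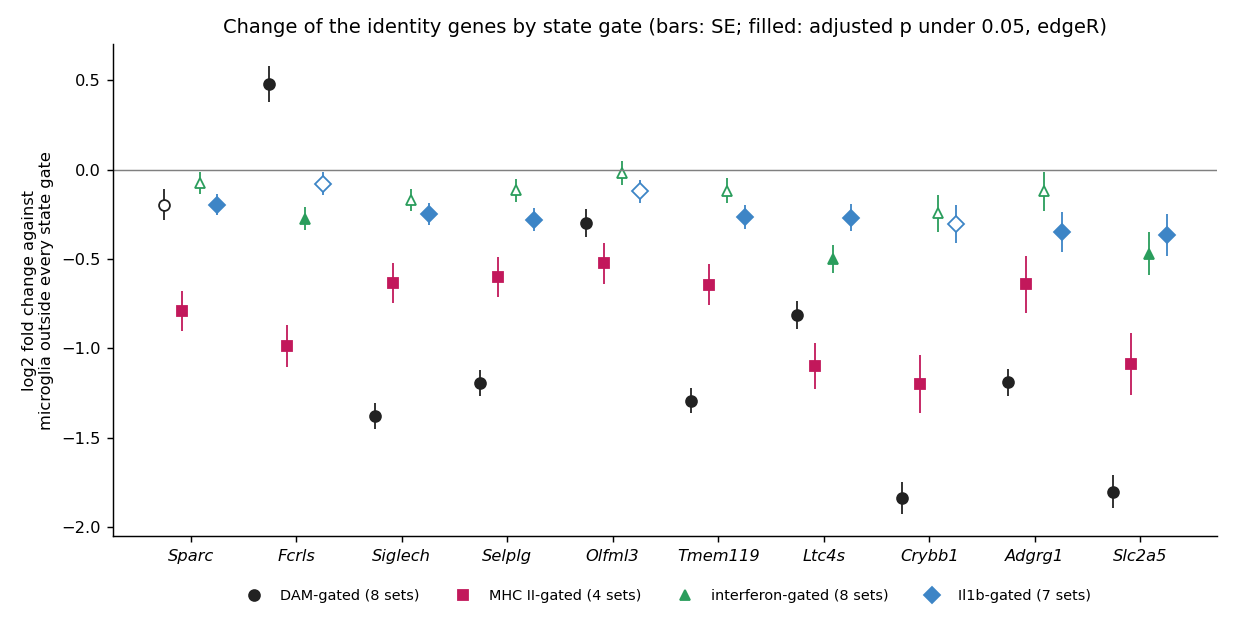
Log2 fold change of each gene in DAM-, interferon-, MHC class II- and Il1b-gated against ungated microglia, with its SE from edgeR; filled points had an adjusted p under 0.05. Fcrls is the one gene above 0 in the DAM gate, and all 10 genes lie below 0 in the MHC class II gate.

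Across 36 sums of sets and microglial states with at least 20 cells, the genes whose log2 levels were most like the mean of the 10 were P2ry12 (Pearson's r = 0.923; a marker of the microglial gate), 8030442B05Rik (0.912), Rock2 (0.906), Srgap2 (0.904) and Rapgef5 (0.898), among 6441 genes detected in every sum. The 10 genes themselves ran from Selplg (0.935) down to Sparc (0.702) and Fcrls (0.182). Each of them is part of that mean, which lifts its own r, so these values cannot be set beside that of P2ry12. The closest pair was Siglech and Selplg (r = 0.945), and the least alike Fcrls and Adgrg1 (r = -0.251). Sums of 1 set share mice and library, so these correlations are descriptions with no test. P2ry12 itself averaged 18.7 UMIs per 10000 in the ungated and 6.71 in the DAM-gated sums.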

How the data were processed

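The values were counts: raw UMI counts per gene and cell, which the authors deposited without normalization, made with Cell Ranger 7.1.0 per the file headers (its methods cite an older release) on mm10 (GRCm38). Whether intronic reads were counted was not stated. Multiplexing oligos were left out. As in the study, cells with 200 to 7500 genes and at most 2% mitochondrial counts were kept, 9789875 to 26636526 UMIs per set. No doublets were called; cells with over 2 markers of a second class were not gated as microglia.

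Microglia needed a summed 80 UMIs per 10000 over 8 markers, other classes 4 of 8 markers, and the DAM, interferon, MHC class II, cycling and Il1b gates sums of 50, 20, 40, 5 and 20; 1 further DAM marker was not analysed here. Thresholds were set after gate sizes were seen. Members and lists were chosen with earlier results of these data known. Named were all 10 members, the 3 largest called changes of 40 other homeostatic genes per comparison, and the 5 genes of most alike pattern; some genes under this rule are not reported here.

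Raw counts were summed per set (at least 20 cells per state, 10 per class) and tested with edgeR 4.0.16 in R 4.3.3 (TMM, filterByExpr, quasi-likelihood F-test, SE from the F statistic), with Benjamini-Hochberg adjustment over all genes and a threshold of 0.05. State, class and interaction fits had the set as a block. Deviations from the region means over 12997 genes correlated between sets of the same number in both regions (0.508, 0.134, 0.473 and 0.170), so the file numbers were taken to pair the sets, and a fit with the number as a block stands beside the regional tests. HPC set 2 correlated slightly more with thalamus set 3 (0.153) than with thalamus set 2. The labels state no pairing, so the blocked fits rest on this choice. Alternatives were DESeq2 1.42.0, other scaling, filters, gates and left-out sets. The scripts were tested on simulated data.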

Additional observations from a re-analysis of the deposited data

Results flagged for a closer look

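In groups of 4 sets, a set was singled out where its gap to the nearest other set exceeded 0.829 of the group's range (Dixon's 95% limit). Of 60 groups checked 4 had such a set, and chance alone gives about 1 in 20. All 4 were HPC set 1, which was low. Over all microglia it held 8.59 UMIs of Siglech per 10000 (14.1 to 14.7 in the other HPC sets) and 1.55 of Adgrg1 (1.83 to 1.88). In ungated microglia it held 9.16 of Siglech (14.6 to 14.9) and 0.817 of Slc2a5 (1.87 to 2.08). The 4 values come from 1 set of cells and share them, and microglia were 65.2% of its cells.

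The change from ungated to DAM-gated microglia differed between the regions for 3 genes by the interaction term in edgeR with the set as a block. Thalamus minus HPC, the difference was 0.90 on the log2 scale for Fcrls, 0.74 for Sparc and 0.46 for Siglech. Fcrls and Sparc passed in each fit that left out 1 set, at 0.72 (without thalamus set 1) to 1.05 (without HPC set 1) and 0.66 (without HPC set 3) to 0.87 (without HPC set 1), and Siglech passed without HPC set 4 only. DAM-gated cells had higher DAM marker sums in the thalamus, and within sums of 50 to 100 none of the 3 passed in edgeR, at 0.50, 0.46 and 0.46; 0 of the 10 genes were called there, by edgeR alone, since DESeq2 was not run on the interaction. HPC set 3, with 19 gated cells within those sums, was not in that fit.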

How the results depend on the processing

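Over 100 values (10 genes in 10 comparisons), 56 were called. Refits of the called values kept call and direction in 713 cases, lost the call in 93 and turned the sign in 0; 12 of the losses were Siglech in the interaction and 12 Adgrg1 in the Il1b gate. The cause of a lost call was not tested beyond fewer sets or cells. Of all microglia between regions, where 2 of the 10 genes were called, DESeq2 called 5 (1 higher, 4 lower), edgeR with no filter on low counts 4, the stricter class gate 1, the fit without Malat1-poor cells 1, and fits without 1 set 1 to 7. With the set number as a block (the replicate block), 9 were called there and 1 instead of 0 in ungated microglia, where fits without 1 set gave 0 to 2. The interferon gate's 3 became 1 with DESeq2, 1 with no replicate block and 5 with higher thresholds. The Il1b gate's 7 became 3 with library totals alone, 1 with RLE factors, 0 with DESeq2, 2 with the stricter class gate, 0 with no replicate block, 3 with lower thresholds and 2 to 7 without 1 set. The interaction's 3 became 0 with no replicate block (943 of all genes at an unadjusted p under 0.05) and 0 within DAM sums of 50 to 100 (953), the latter chosen after seeing the data, as was leaving out Malat1-poor cells in the DAM comparisons. Fits within sums of 50 to 100 lacked HPC set 3, which held 19 gated cells there. In the MHC class II gate Adgrg1 lost its call in 4 settings and Tmem119 in 1. In no other comparison did the block change a count by over 1.5 times. For most of these refits the share of all genes called is not reported here, so the counts alone do not single out the 10 genes.

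Sign changes touched only genes that were not called, on the log2 scale. Between regions, over all microglia, Olfml3 was at -0.036 with library totals alone and at -0.011 to 0.064 without 1 set. In ungated microglia Fcrls was at 0.016 with higher thresholds, and without 1 set Fcrls ran from -0.13 to 0.023, Olfml3 from -0.016 to 0.057, Slc2a5 from -0.33 to 0.00037 and Crybb1 from -0.28 to 0.0082. In DAM-gated microglia higher thresholds, which left few HPC cells, gave 1.30 for Crybb1, 0.12 for Tmem119 and 0.34 for Adgrg1. In the interferon gate Olfml3 was at 0.066 with RLE factors and with DESeq2, 0.041 with up to 5% mitochondrial counts, 0.014 with no replicate block, 0.042 with lower thresholds and -0.096 to 0.043 without 1 set, and Sparc at 0.0096 with RLE factors and 0.0061 with DESeq2. In the Il1b gate Fcrls was at 0.0017 with RLE factors. In the interaction Crybb1 was at 1.14 and Tmem119 at 0.23 with higher thresholds, Tmem119 at 0.019 within sums of 50 to 100 and at -0.15 to 0.17 without 1 set, and Adgrg1 at -0.095 with library totals alone, -0.022 without Malat1-poor cells and -0.059 to 0.17 without 1 set.

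Depth limited the low members: Slc2a5, Adgrg1 and Crybb1 stood under 2 UMIs per 10000. The interferon, MHC class II and Il1b gates, with 24 to 70 cells per tested set, could miss changes of the sizes seen elsewhere. The stricter class gate could not be fitted against border macrophages.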

Other observations

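Cells passing several state gates, 999 in all, belonged to no state comparison. They were part of all microglia in the regional comparison and in those with border macrophages and monocytes. In them Fcrls was at 19.1, 16.1, 19.0 and 18.2 UMIs per 10000 in thalamus sets 1 to 4 and at 7.83, 5.15, 1.52 and 5.40 in HPC sets 1 to 4, the third HPC value resting on 3 cells. Sparc was at 20.5, 17.2, 22.9 and 21.1 in the thalamus and at 10.1, 8.10, 11.6 and 10.9 in the HPC. For both genes every thalamus set lay above every HPC set, with no test run and no count over all genes. Crybb1 was at 0.32, 0.14, 0.36 and 0.54 in the thalamus and at 0.48, 0.48, 0.51 and 0.57 in the HPC.

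Cycling-gated microglia numbered 33, of which 22 came from thalamus set 1. There Sparc was at 25.8, Fcrls at 13.2, Olfml3 at 10.7, Selplg at 10.6 and Tmem119 at 4.69 UMIs per 10000, and the other sets held too few such cells for a value to be read.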
